A study of Homo sapiens with 12 samples.

Results

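The nuclear-encoded subunits of the mitochondrial respiratory chain were followed in WM1366, an established NRAS-mutant human melanoma cell line, and in 3 daughter lines resistant to combined inhibition of the kinases BRAF and MEK. The members were the protein-coding genes whose symbols mark them as subunits of complex I (NDUFA, NDUFB, NDUFC, NDUFS or NDUFV with a number), complex II (SDHA to SDHD), complex III (UQCR), complex IV (COX4 to COX8) or complex V (ATP5F, ATP5M or ATP5P). COX7A1 and COX7A2L, whose symbols also fit, were left out. Of 23497 genes in the count table, 14663 of them protein-coding, 80 were members: 38 of complex I, 4 of complex II, 9 of complex III, 10 of complex IV and 19 of complex V. Membership followed names alone and used no measured value, although the family was chosen with earlier results of these data known.

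The respiratory chain sits in the inner mitochondrial membrane. Complexes I and II take electrons from NADH and succinate, complex III passes them to cytochrome c, and complex IV hands them to oxygen. Complexes I, III and IV pump protons as they do so, and complex V, the ATP synthase, lets the protons back to make ATP. Complexes I, III, IV and V each combine nuclear-encoded subunits with a few encoded by mitochondrial DNA, whereas complex II is wholly nuclear-encoded. In melanoma, oxidative metabolism has been studied as a feature of cells that tolerate BRAF and MEK inhibitors, with the coactivator PPARGC1A and the lineage factor MITF as regulators of the mitochondrial genes.

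Bulk RNA sequencing of poly(A)-selected RNA gave 12 libraries. EB-resistant WM1366 cells were kept in encorafenib and binimetinib, VC-resistant cells in vemurafenib and cobimetinib, and DT-resistant cells in dabrafenib and trametinib, with 3 libraries each. In each pair the first drug inhibits BRAF and the second MEK. The sensitive parent, in DMSO, gave the other 3 libraries, and all cells had been seeded 72 h before lysis. The libraries are labelled replicates 2, 5 and 6 in each line and came from 3 independent experiments, and the labels do not say whether a number marks the same experiment in all 4 lines. Each drug pair is represented by 1 daughter line, so resistance, the presence of the drugs and the history of that line cannot be told apart.

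Library totals ran between 40491309 and 54495132 counts, and no 2 libraries of a group agreed within sampling noise. Of the melanocyte lineage markers MITF, SOX10, MLANA, PMEL, TYR, TYRP1, DCT and S100B, only 4 had a row in the table. MITF averaged 53.3, 66.4 and 66.3 CPM (counts per library, scaled to a common total) in the EB-, VC- and DT-resistant lines and 47.1 CPM in the sensitive line, while PMEL, TYRP1 and DCT averaged under 1 CPM in every group. The summed level of 8 fibroblast markers was 525 to 588 CPM in EB-resistant, 281 to 314 CPM in VC-resistant and 361 to 468 CPM in DT-resistant libraries, against 109 to 148 CPM in sensitive ones. THY1 gave the largest part, and COL1A2 and PDGFRA stayed under 0.1 CPM on average in every group. Of the 5 fibroblast markers tested with edgeR, 5, 4 and 5 were higher than in sensitive cells at an adjusted p under 0.05, and 0 lower. Of all genes 28.5%, 27.6% and 29.8% were higher. The median log2 fold change of these markers was 5.76, 1.72 and 3.46 in the EB-, VC- and DT-resistant lines. Summed immune and endothelial markers stayed at or under 4.16 and 7.28 CPM. The part of these markers in the results below was not tested.

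The promoter sequences of 4 members are shown because they hold the letters of known regulators of respiratory genes and because their levels moved in all 3 resistant lines, upward for SDHD and NDUFA8 and downward for ATP5F1A and NDUFS6. NRF1 (nuclear respiratory factor 1) and the ETS factor GABPA are transcription factors known to bind many promoters of this family. Each window runs 250 bases before to 50 after a RefSeq transcription start (build GRCh38.p14), printed 5′ to 3′ along the gene's strand. Capitals mark the NRF1 core GCATGCGC or the ETS/GABPA motif CCGGAAGT, read on either strand, and overlapping NRF1 cores are joined. The windows are SDHD on chr11:112086623-112086922 (plus strand), NDUFA8 on chr9:122159730-122160029 (minus strand), ATP5F1A on chr18:46098247-46098546 (minus strand, the 1 of its 2 windows that holds a match) and NDUFS6 on chr5:1801157-1801456 (plus strand).
SDHD: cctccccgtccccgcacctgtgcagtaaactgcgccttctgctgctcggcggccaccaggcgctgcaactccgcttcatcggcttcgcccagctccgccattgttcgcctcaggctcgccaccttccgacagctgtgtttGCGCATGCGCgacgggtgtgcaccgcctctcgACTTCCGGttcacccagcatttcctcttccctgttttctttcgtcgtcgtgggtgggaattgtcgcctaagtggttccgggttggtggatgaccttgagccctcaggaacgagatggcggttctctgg
NDUFA8: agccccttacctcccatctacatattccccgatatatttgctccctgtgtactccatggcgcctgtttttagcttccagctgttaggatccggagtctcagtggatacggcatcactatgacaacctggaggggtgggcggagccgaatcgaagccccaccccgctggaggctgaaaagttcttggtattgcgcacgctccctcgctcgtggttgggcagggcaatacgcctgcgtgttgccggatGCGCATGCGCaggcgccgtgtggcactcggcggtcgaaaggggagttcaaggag
ATP5F1A: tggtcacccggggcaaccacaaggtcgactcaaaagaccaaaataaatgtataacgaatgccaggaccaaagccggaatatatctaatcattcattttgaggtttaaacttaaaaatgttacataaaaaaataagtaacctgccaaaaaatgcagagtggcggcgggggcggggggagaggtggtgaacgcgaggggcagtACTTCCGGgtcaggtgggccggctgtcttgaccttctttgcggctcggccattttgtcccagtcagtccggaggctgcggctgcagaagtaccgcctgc
NDUFS6: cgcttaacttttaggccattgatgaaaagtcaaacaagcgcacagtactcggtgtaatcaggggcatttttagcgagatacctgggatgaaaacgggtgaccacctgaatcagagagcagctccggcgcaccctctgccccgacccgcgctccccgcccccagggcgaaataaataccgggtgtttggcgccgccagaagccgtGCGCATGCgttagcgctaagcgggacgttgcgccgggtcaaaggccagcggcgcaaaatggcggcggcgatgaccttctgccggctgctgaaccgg
In SDHD 2 overlapping cores form a palindrome, beginning 110 bases before the start, and the ETS motif begins 78 bases before it. In NDUFA8 the same palindrome begins 4 bases before the start. The ETS motif of ATP5F1A begins 49 bases before its start, and the single core of NDUFS6 begins 46 bases before.

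Windows were at hand for 63 of the 80 members. A member counted if any of its windows held the motif, whereas the wider shares count single windows. The shares are thus in unlike units, which favours a higher share among members. The NRF1 core stood in 14 of these 63 members (22.2%), against 3.05% of all 35116 RefSeq windows and 4.55% of the 15552 windows of tested protein-coding genes. The ETS/GABPA motif stood in 12 (19%), against 4.14% of all windows and 7.14% of those of tested protein-coding genes. The YY1 motif AAGATGGC, read the same way, also stood in 12 (19%), against 2.89% and 4.58% of the same sets. SDHD, COX5B, NDUFA6, NDUFS7 and SDHB held 2 of the 3 motifs each, and ATP5PF held all 3. ATP5PF was not called in any of the lines, but passed the test in the DT-resistant line with upper-quartile scaling (log2FC -0.18). Matches stood beside genes that rose (SDHD, NDUFA8), that fell (ATP5F1A, NDUFS6) and that moved differently between lines (NDUFA6, NDUFS7). A match describes the letters in the window and is not a binding site measured in these cells.

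Of the 80 members, 77 had enough counts to be tested. Levels are given as CPM on totals scaled by the trimmed mean of M-values, and log2 fold changes (log2FC) come from edgeR's quasi-likelihood test. A gene "rose" or "fell" where its Benjamini-Hochberg adjusted p, over all 17114 genes tested, was under 0.05. In bulk RNA, fewer cells expressing a gene and less of its RNA per cell cannot be told apart.

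In every resistant line more subunit genes rose than fell, and most changes were small. In EB-resistant cells 31 of 77 rose and 11 fell against sensitive cells, at a median log2FC of 0.15. Of all genes tested in that comparison 56.1% were called, 28.5% upward and 27.6% downward. In VC-resistant cells 33 rose and 11 fell, at a median of 0.11, beside 55.0% of all genes called (27.6% upward and 27.4% downward). In DT-resistant cells 30 rose and 12 fell, at a median of 0.04, beside 59.1% of all genes called (29.8% upward and 29.3% downward). The share of members that fell was thus under the background in each line and the share that rose above it. The median over all genes tested lay within 0.01 of 0 in each comparison. A change of at least 1.5-fold was seen upward in 7, 8 and 7 members in the EB-, VC- and DT-resistant lines, and downward in 2, 2 and 0. The background of such changes was 18.7%, 16.6% and 18.5% upward and 16.2%, 16.3% and 18.3% downward. Leaving out sensitive replicate 5 lowered the 11 falls in VC-resistant cells to 6, and leaving out VC-resistant replicate 5 or 6 or sensitive replicate 6 lowered them to 7. Of the 1.5-fold counts, the 7 rises in EB-resistant cells became 11 without EB-resistant replicate 2, and the 2 falls there became 1 without that library or sensitive replicate 6. The 2 falls in VC-resistant cells became 0 without VC-resistant replicate 5 or sensitive replicate 5 or 6, and 1 without VC-resistant replicate 2 or 6 or EB-resistant replicate 6.

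The 3 comparisons with the parent share its libraries, so they are not independent of each other. With that limit, 20 of 77 members rose in each of the 3 lines, where 12.5% of all genes did, and 3 fell in each, where 12.1% of all genes did. Complex I gave 12 of the 20, complex III 3, complex IV 3 and complexes II and V 1 each. Complexes were assigned by symbol, so the 12 include NDUFA4, now placed with complex IV, and its paralog NDUFA4L2. The members that fell in each were NDUFS6, NDUFA12 and ATP5F1A. The first count ran between 17 and 23 when single libraries were left out, and the genes that dropped out were UQCRQ, COX6C and NDUFS3. The second was 1 without sensitive replicate 5 or 6, with no filter on low counts and with only the 2 groups compared in the fit, where NDUFS6 alone was left each time. It was 2 without EB-resistant replicate 5 or 6, any VC-resistant library or DT-resistant replicate 5, and 3 or 4 in the other such fits. In none of the 3 comparisons were 15 members called, 7 of them complex V genes. Without sensitive replicate 5 this number was 23, and of the 7 complex V genes 4 were left uncalled with upper-quartile scaling or without sensitive replicate 2.

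**Figure D1:**
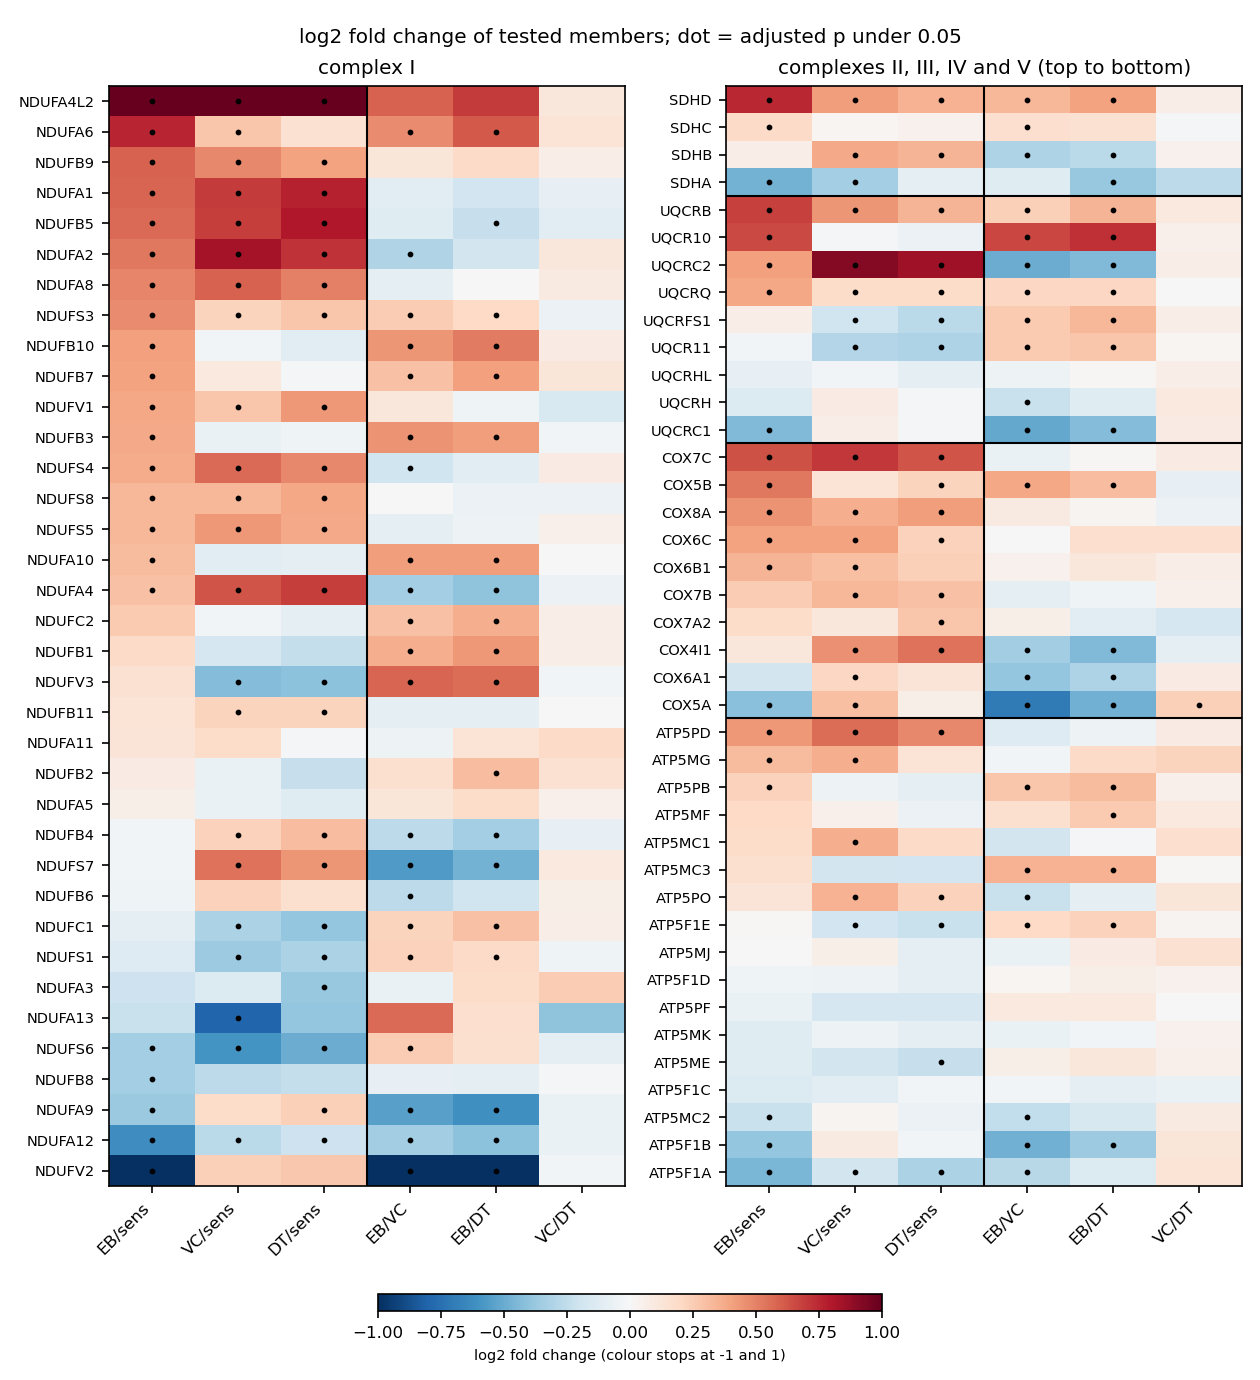
Each cell is the log2 fold change of a member (rows; 1 tested member is not shown) in a comparison (columns; EB, VC and DT are the resistant lines and sens the sensitive parent), and dots mark an adjusted p under 0.05. Members are sorted within each complex by their EB/sens value. Most complex IV cells over sens are red, and the VC/DT column is pale, with COX5A as its only dot.

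Summed over genes, the members took 0.734%, 0.783% and 0.828% of all counts in EB-resistant libraries, 0.743%, 0.757% and 0.782% in VC-resistant ones and 0.735%, 0.707% and 0.762% in DT-resistant ones. They took 0.678%, 0.705% and 0.747% in sensitive libraries. Each resistant group overlapped the sensitive one in this share of all counts. Complex IV did not: its 10 genes took 0.114% to 0.133% in EB-resistant, 0.121% to 0.126% in VC-resistant and 0.115% to 0.126% in DT-resistant libraries, against 0.0940% to 0.102% in sensitive ones. Complex II was also apart, with 0.0426% at the lowest of the resistant libraries and 0.0422% at the highest of the sensitive ones. Complex I took 0.202% to 0.221% in EB-resistant and 0.187% to 0.194% in VC-resistant libraries, both above the 0.172% to 0.184% of sensitive ones, and 0.184% to 0.199% in DT-resistant ones. Complex III took 0.106% to 0.112% in VC-resistant libraries, above the 0.0900% to 0.0995% of sensitive ones, which the EB- and DT-resistant libraries overlapped. Complex V took 0.285% ± 0.0179, 0.293% ± 0.0117 and 0.275% ± 0.0118 in the EB-, VC- and DT-resistant groups and 0.301% ± 0.0178 in the sensitive group (SD, n = 3 each), with overlapping libraries. These sums were not tested: an exact permutation test of 3 libraries against 3 cannot go below p = 0.1, and no model was fitted to them. They are shares, so they also move with the rest of the library: the 13 mitochondrially encoded mRNAs took between 1.07% and 2.69% of counts. The library totals used here were not scaled by the trimmed mean of M-values. Without these mRNAs and the cytoplasmic ribosomal protein genes in the total, VC-resistant libraries took 0.824%, 0.834% and 0.864% for all members. That is above the 0.736%, 0.768% and 0.804% of sensitive ones, which the EB- and DT-resistant libraries still overlapped. Complex I was then at 0.200% to 0.216% in DT-resistant libraries, above the 0.187% to 0.198% of sensitive ones.

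**Figure D2:**
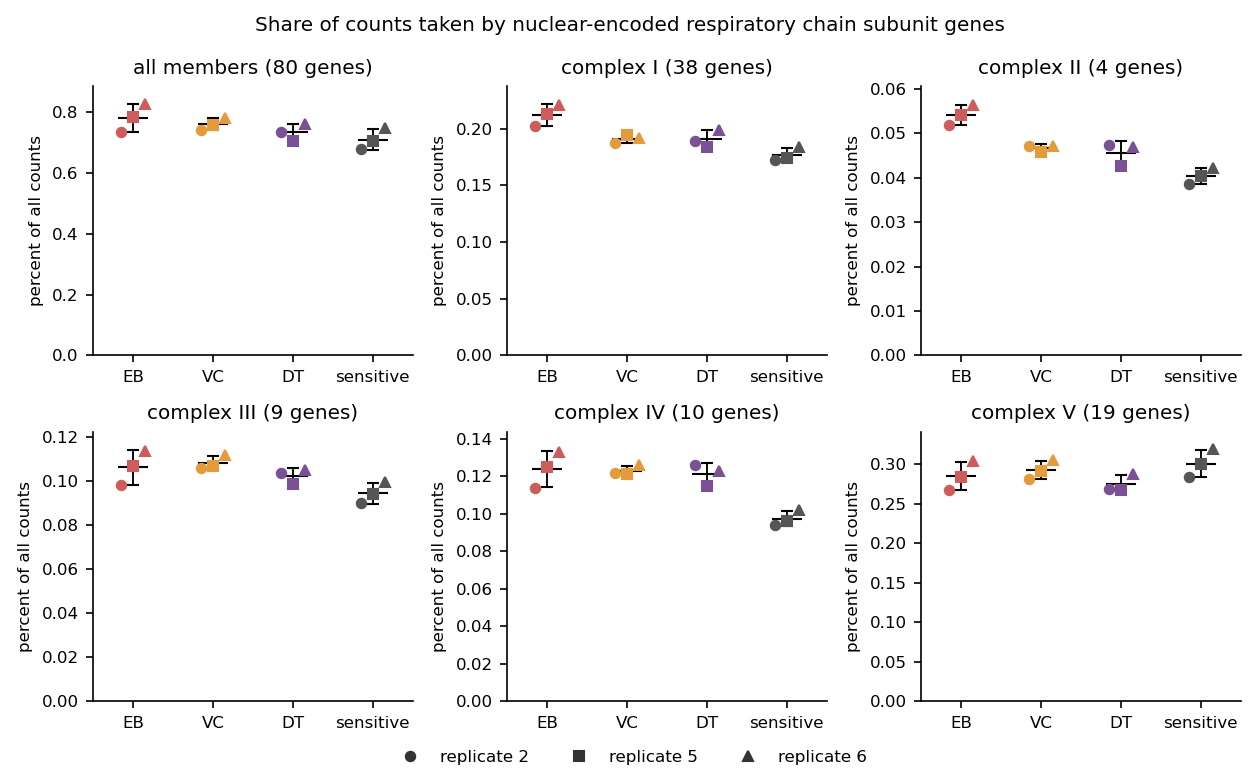
Percent of all counts per library taken by the members of each complex, with the bar and whiskers showing the mean and SD of 3 libraries. Complex IV lies between 0.114% and 0.133% in the 9 resistant libraries and at or below 0.102% in the sensitive ones, whereas complex V overlaps.

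Complex I, the NADH dehydrogenase, had 37 tested members. In EB-resistant cells 17 rose and 5 fell, in VC-resistant cells 16 rose and 6 fell, and in DT-resistant cells 16 rose and 7 fell. Upward that is 45.9%, 43.2% and 43.2%, beside 28.5%, 27.6% and 29.8% of all genes. Downward it is 13.5%, 16.2% and 18.9%, beside 27.6%, 27.4% and 29.3%. The largest ratio belonged to NDUFA4L2, a paralog of NDUFA4 known as a hypoxia-inducible gene. It had 3.94, 2.83 and 2.37 CPM in EB-resistant libraries, 2.18, 2.02 and 1.87 CPM in VC-resistant ones and 2.51, 1.98 and 1.11 CPM in DT-resistant ones, against 0.566, 0.337 and 0.109 CPM in sensitive ones. All 9 resistant libraries lay above the 3 sensitive ones. Its log2FC was 3.17 ± 0.41 (SE) in EB-resistant cells (adjusted p = 1.08e-05), 2.57 ± 0.41 in VC-resistant cells (adjusted p = 0.000111) and 2.46 ± 0.41 in DT-resistant cells (adjusted p = 0.000142). The gene stayed scarce: sensitive libraries held 5 to 26 counts of it, and resistant libraries 48 to 189.

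NDUFA4 itself, named for complex I but now placed with complex IV, was a widely expressed counterpart. It had 97.5, 120 and 119 CPM in EB-resistant, 139, 142 and 145 CPM in VC-resistant and 149, 141 and 152 CPM in DT-resistant libraries, against 84.3, 92.6 and 97.0 CPM in sensitive ones. Every resistant library was above every sensitive one, with the lowest EB-resistant library just above the highest sensitive one. The log2FC was 0.29, 0.63 and 0.69 in the EB-, VC- and DT-resistant lines (adjusted p = 0.00605, 1.17e-05 and 4.09e-06). It was lower in EB-resistant than in VC-resistant cells (log2FC -0.34, adjusted p = 0.00205).

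Several accessory subunits of complex I also rose in each line. NDUFA1, a small subunit of the membrane arm, had 28.4, 29.7 and 32.5 CPM in EB-resistant, 33.2, 30.2 and 34.5 CPM in VC-resistant and 37.2, 30.5 and 35.9 CPM in DT-resistant libraries, against 20.7, 20.2 and 19.6 CPM in sensitive ones. All resistant libraries lay above the sensitive ones, and the log2FC was 0.58, 0.70 and 0.77 in the EB-, VC- and DT-resistant lines. Of the exon bases of NDUFA1 44.5% lie opposite another gene, and the strand setting of the counting was not known here. NDUFB5, also of the membrane arm, was at 81.8 to 90.3, 89.6 to 99.6 and 93.3 to 107 CPM in the 3 resistant lines and 56.3 to 60.3 CPM in sensitive cells, with log2FC 0.57, 0.69 and 0.80. Its adjusted p in DT-resistant cells was 3.25e-07. NDUFA2, an accessory subunit of the peripheral arm, had log2FC 0.53, 0.83 and 0.72 in the same order, and NDUFA8, whose promoter is printed above, 0.49, 0.59 and 0.50.

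Core subunits, which carry the flavin and the iron-sulfur clusters or shape the quinone site, did not move as a block. NDUFV1, which binds NADH, rose in each line, to 156 ± 1.02 CPM in EB-resistant, 145 ± 6.50 CPM in VC-resistant and 161 ± 2.7 CPM in DT-resistant cells, against 120 ± 5.76 CPM in sensitive cells (SD, n = 3 each). NDUFS8 and NDUFS3 also rose in each line, with log2FC between 0.22 and 0.47, NDUFS3 losing its call in VC-resistant cells without sensitive replicate 2 (0.18). NDUFS1, the subunit with the most iron-sulfur clusters, fell in VC-resistant (log2FC -0.36, adjusted p = 0.000339) and DT-resistant cells (log2FC -0.32, adjusted p = 0.000796), and had log2FC -0.13 in EB-resistant cells (adjusted p = 0.105).

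NDUFS7, a core subunit with an iron-sulfur cluster, rose in VC- and DT-resistant cells and was not called in EB-resistant cells. It had 30.0, 33.0 and 33.0 CPM in EB-resistant libraries, 49.9, 46.1 and 46.7 CPM in VC-resistant ones and 53.4, 41.5 and 38.3 CPM in DT-resistant ones, against 33.0, 34.3 and 30.8 CPM in sensitive ones. EB-resistant libraries overlapped the sensitive ones, and the VC- and DT-resistant ones lay above both. The difference between lines passed the test itself, with log2FC -0.57 for EB-resistant over VC-resistant cells (adjusted p = 0.000283) and -0.47 over DT-resistant cells (adjusted p = 0.00143). Of its exon bases 49.1% lie opposite another gene.

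NDUFV2 and NDUFA13 were scarce in these counts. NDUFV2 had 13, 13 and 15 counts in EB-resistant, 35, 42 and 47 in VC-resistant, 58, 35 and 33 in DT-resistant and 39, 23 and 46 in sensitive libraries. The EB-resistant libraries were the lowest (log2FC -1.42 ± 0.34, adjusted p = 0.00229). NDUFA13 had 20 to 56 counts over all libraries and fell in VC-resistant cells (log2FC -0.79, adjusted p = 0.0222). That call did not hold when replicate 5 or 6 of the sensitive or the VC-resistant group was left out (-0.79 to -0.59). In GENCODE release 29, 28.4% of the exon bases of NDUFV2 and 21% of those of NDUFA13 also belong to another gene on the same strand. The untested NDUFA7, with 1 to 14 counts, shares 32.3%. How the counting treated reads that fit 2 genes is not given in the sources used here, so the levels of these 3 genes are uncertain. The other untested members, ATP5MF-PTCD1, a read-through gene, and ATP5MGL, had at most 9 and 5 counts.

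NDUFS6 and NDUFA12, accessory subunits of the peripheral arm, fell in every line. NDUFS6 had 34.9, 36.2 and 37.7 CPM in EB-resistant, 29, 30.2 and 32.0 CPM in VC-resistant and 31.2, 32.4 and 34.1 CPM in DT-resistant libraries, against 42.4, 47.5 and 48.1 CPM in sensitive ones. No resistant library reached a sensitive one, and the log2FC was -0.34, -0.60 and -0.50 (adjusted p = 0.00156, 1.54e-05 and 6.70e-05). NDUFA12 had 43.4 ± 1.54 CPM in EB-resistant, 55.2 ± 2.75 CPM in VC-resistant and 57.7 ± 2.72 CPM in DT-resistant cells, against 66.7 ± 3.31 CPM in sensitive cells, with log2FC -0.62, -0.27 and -0.21. The DT-resistant call for NDUFA12 (adjusted p = 0.0205) was lost without sensitive replicate 5 (-0.19), sensitive replicate 6 (-0.18) or DT-resistant replicate 5 (-0.17), with no filter on low counts (-0.19) and with only the 2 groups compared (-0.20).

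NDUFA6, an accessory subunit, and NDUFA9 moved in opposite directions in the EB-resistant line. NDUFA6 had 56.6, 60.9 and 62.7 CPM in EB-resistant libraries, 42.7, 42.6 and 44.4 CPM in VC-resistant ones and 40.7, 36.7 and 40.5 CPM in DT-resistant ones, against 31.2, 36.0 and 39.3 CPM in sensitive ones. The EB-resistant libraries were the highest (log2FC 0.76 over sensitive, adjusted p = 2.95e-06). VC-resistant cells rose less (0.28, adjusted p = 0.0124, and 0.20 without sensitive replicate 2, where the call was lost), and DT-resistant cells had log2FC 0.15 (adjusted p = 0.165, and 0.23 with a call without sensitive replicate 6). NDUFA9, which lies by the quinone site, had 17.2, 18.5 and 18.6 CPM in EB-resistant, 27.5, 26.3 and 25.4 CPM in VC-resistant and 26.8, 27.7 and 28.3 CPM in DT-resistant libraries, against 21.7, 24.4 and 23.9 CPM in sensitive ones. The EB-resistant libraries lay below the sensitive range and the others above it. It fell in EB-resistant cells (log2FC -0.37, adjusted p = 0.00129) and rose in DT-resistant cells (0.24, adjusted p = 0.0182). The DT-resistant call was lost without sensitive replicate 2 (0.19) or DT-resistant replicate 6 (0.23).

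**Figure D3:**
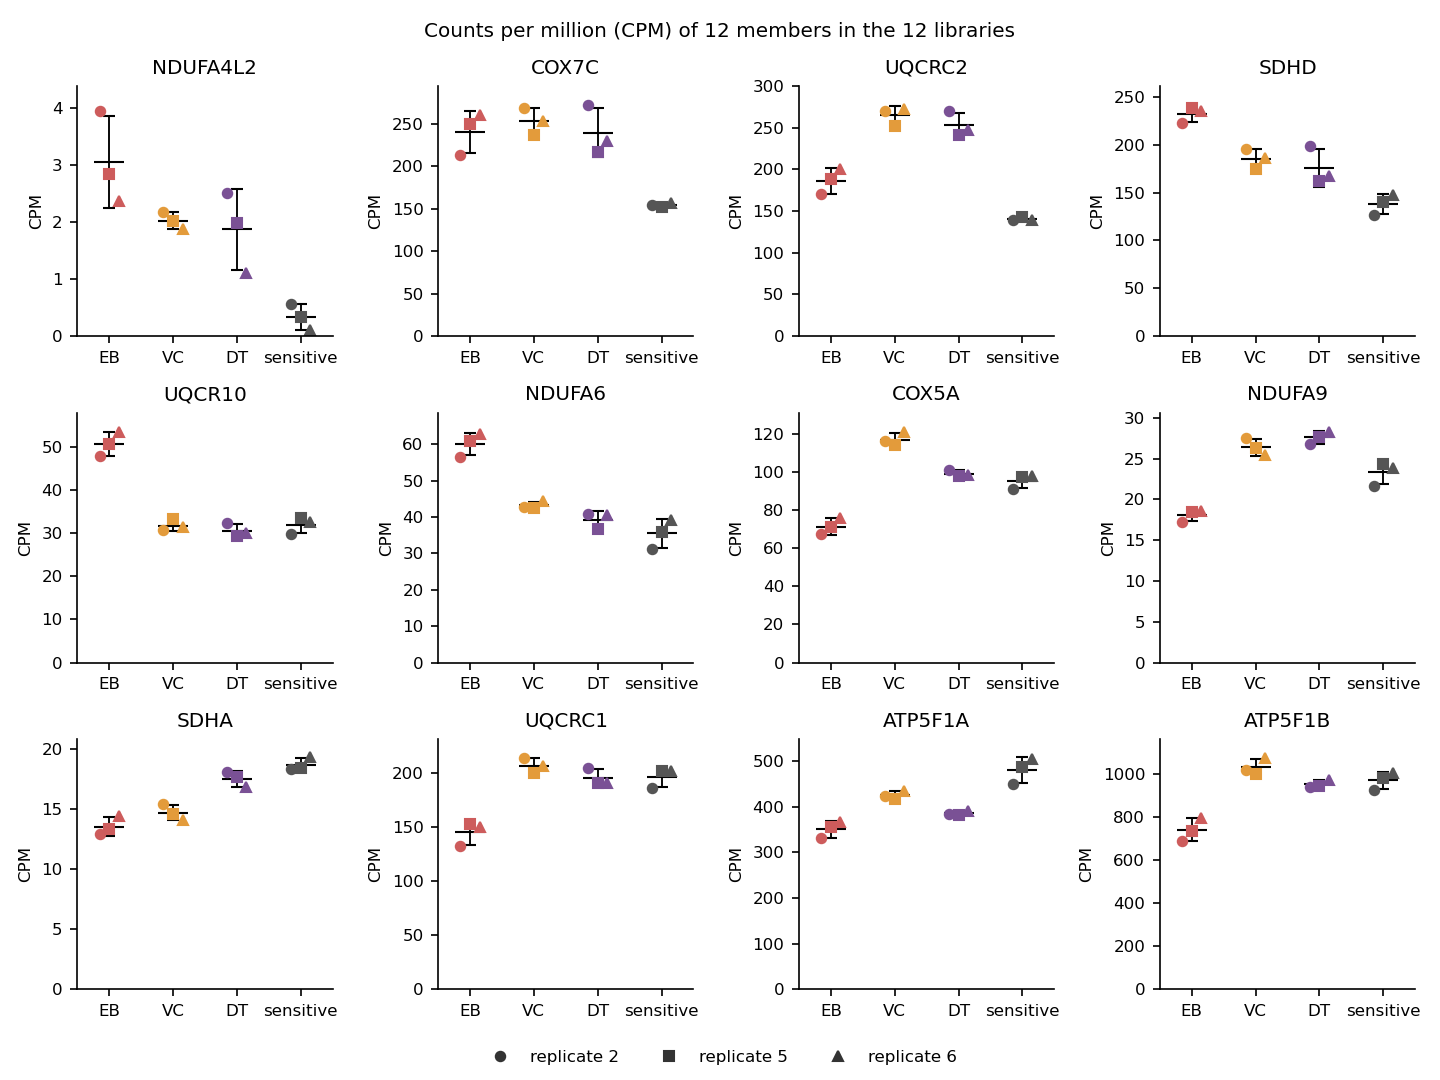
CPM of 12 members in each library, by group, with bars and whiskers for the mean and SD of 3 libraries and a marker shape per replicate number. NDUFA4L2, COX7C, UQCRC2 and SDHD lie higher in the 9 resistant libraries than in any sensitive one, UQCR10 and NDUFA6 are highest in the EB-resistant line, and COX5A, NDUFA9, UQCRC1 and ATP5F1B are lowest there.

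Complex II, succinate dehydrogenase, has 4 subunits, and each had its own pattern. SDHD, a membrane anchor, had 223, 239 and 236 CPM in EB-resistant, 196, 175 and 186 CPM in VC-resistant and 199, 162 and 168 CPM in DT-resistant libraries, against 127, 140 and 148 CPM in sensitive ones. All resistant libraries were above all sensitive ones, the EB-resistant ones most. Its log2FC was 0.75 ± 0.085, 0.42 ± 0.084 and 0.35 ± 0.084 (adjusted p = 2.26e-06, 0.000600 and 0.00238). SDHA, the flavoprotein where succinate is oxidized, had 12.9, 13.3 and 14.4 CPM in EB-resistant, 15.4, 14.6 and 14.1 CPM in VC-resistant and 18.1, 17.7 and 16.8 CPM in DT-resistant libraries, against 18.3, 18.4 and 19.3 CPM in sensitive ones. It fell in EB-resistant (log2FC -0.47, adjusted p = 0.000334) and VC-resistant cells (-0.34, adjusted p = 0.00389), and had log2FC -0.09 in DT-resistant cells (adjusted p = 0.407).

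SDHB, the iron-sulfur subunit, rose in VC-resistant and DT-resistant cells, at 144 ± 6.05 and 140 ± 8.48 CPM against 111 ± 1.61 CPM in sensitive cells (SD, n = 3 each). It had 116 ± 6.95 CPM in EB-resistant cells, where log2FC 0.07 did not pass the test (adjusted p = 0.419). SDHC, the other anchor, had log2FC 0.19, 0.02 and 0.04 in the EB-, VC- and DT-resistant lines. Its EB-resistant call (adjusted p = 0.0235), 1 of the 2 rises of this complex there, was lost without sensitive replicate 2 (0.15), EB-resistant replicate 5 (0.19) or EB-resistant replicate 6 (0.18). In the EB-resistant line the anchors thus rose, the catalytic subunit fell and the iron-sulfur subunit was not called.

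Complex III, the cytochrome bc1 complex, had 9 tested members, of which 4 rose and 1 fell in EB-resistant cells, 3 rose and 2 fell in VC-resistant cells, and 3 rose and 2 fell in DT-resistant cells. Upward that is 44.4%, 33.3% and 33.3%, beside 28.5%, 27.6% and 29.8% of all genes. Downward it is 11.1%, 22.2% and 22.2%, beside 27.6%, 27.4% and 29.3%. The 2 falls in VC-resistant cells became 0 without VC-resistant replicate 2 or sensitive replicate 5 or 6, and 1 without VC-resistant replicate 5 or 6, with no filter on low counts or with only the 2 groups compared. The 2 falls in DT-resistant cells became 1 without sensitive replicate 5 or 6. The 2 core proteins, which face the matrix, went apart. UQCRC2 had 170, 189 and 201 CPM in EB-resistant, 270, 252 and 273 CPM in VC-resistant and 270, 242 and 247 CPM in DT-resistant libraries, against 139, 143 and 139 CPM in sensitive ones. No resistant group overlapped the sensitive one, and the log2FC was 0.41, 0.92 and 0.85 (adjusted p = 0.000162, 1.03e-07 and 1.51e-07). UQCRC1 had 132, 153 and 150 CPM in EB-resistant, 214, 200 and 206 CPM in VC-resistant and 205, 191 and 191 CPM in DT-resistant libraries, against 186, 202 and 202 CPM in sensitive ones. Only the EB-resistant libraries stood apart, below the rest (log2FC -0.44, adjusted p = 7.69e-05). Both core proteins were lower in EB-resistant than in VC-resistant cells, with log2FC -0.50 for UQCRC2 and -0.51 for UQCRC1.

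UQCR10, a small subunit, had 47.8, 50.6 and 53.4 CPM in EB-resistant libraries, 30.7, 33.2 and 31.3 CPM in VC-resistant ones and 32.4, 29.3 and 30.0 CPM in DT-resistant ones, against 29.7, 33.5 and 32.5 CPM in sensitive ones. The EB-resistant line alone was apart, with log2FC 0.66 over sensitive (adjusted p = 4.26e-06) and 0.73 over DT-resistant cells (adjusted p = 2.11e-06). UQCRB, a ubiquinone-binding subunit, rose in every line (0.68, 0.44 and 0.34), and the catalytic iron-sulfur protein UQCRFS1 fell in VC-resistant (-0.20) and DT-resistant cells (-0.27). The VC-resistant call for UQCRFS1 (adjusted p = 0.0282) was lost without sensitive replicate 5 or 6 (-0.17 each), VC-resistant replicate 2 (-0.15) or VC-resistant replicate 5 (-0.19), and with no filter (-0.18). UQCRH, the hinge protein, and UQCRHL, a near-identical copy whose reads may be shared with it, were called in none of the 3 lines.

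Complex IV, cytochrome c oxidase, was the complex where calls ran most to one side. Upward calls made up 50%, 80% and 70% of its members, beside 28.5%, 27.6% and 29.8% of all genes. Downward calls made up 10%, 0% and 0%, beside 27.6%, 27.4% and 29.3%. Of its 10 members 5 rose and 1 fell in EB-resistant cells, 8 rose and 0 fell in VC-resistant cells, and 7 rose and 0 fell in DT-resistant cells. In the last 2 lines no member was lower even at an unadjusted p under 0.05 with edgeR, or with DESeq2. The median log2FC was 0.29, 0.32 and 0.26. The count of 5 became 8 without EB-resistant replicate 2, and the count of 8 became 5 without sensitive replicate 2. The 1 fall became 2 without sensitive replicate 2 or DT-resistant replicate 2 or 5, and with only the 2 groups compared. COX7C, a small membrane subunit, had 213, 250 and 260 CPM in EB-resistant, 269, 237 and 253 CPM in VC-resistant and 272, 217 and 230 CPM in DT-resistant libraries, against 155, 152 and 157 CPM in sensitive ones. All resistant libraries lay above the sensitive ones, at log2FC 0.64, 0.71 and 0.63 (adjusted p = 2.19e-05, 1.10e-05 and 2.7e-05). COX8A rose likewise, at 142 ± 4.52, 133 ± 7.07 and 139 ± 7.23 CPM in the EB-, VC- and DT-resistant lines and 104 ± 2.27 CPM in sensitive cells, although 34.5% of its exon bases are shared with another gene on its strand.

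The paralogs named for special tissues or conditions, COX4I2, COX6A2, COX6B2, COX7B2 and COX8C, have no row in the table, so isoform pairs could not be compared. COX4I1, the general form of subunit 4, had 160, 173 and 190 CPM in EB-resistant, 223, 216 and 228 CPM in VC-resistant and 241, 228 and 240 CPM in DT-resistant libraries, against 165, 160 and 162 CPM in sensitive ones. EB-resistant libraries overlapped the sensitive ones (log2FC 0.11, adjusted p = 0.199, and 0.18 with a call without EB-resistant replicate 2), and those of the other lines lay above (0.46 and 0.54, adjusted p = 4.58e-05 and 6.70e-06). COX5B went the other way among the lines: its log2FC was 0.53 in EB-resistant cells (adjusted p = 5.04e-06), 0.14 in VC-resistant cells (adjusted p = 0.0817) and 0.22 in DT-resistant cells (adjusted p = 0.00859). COX7B was the least certain riser, with log2FC 0.25, 0.33 and 0.29 and calls in the VC- and DT-resistant lines only. Without sensitive replicate 2 both calls were lost (0.19 and 0.15). The VC-resistant call was also lost without VC-resistant replicate 6 (0.27) and with only the 2 groups compared (0.34). The DT-resistant call (adjusted p = 0.0490) was also lost with DESeq2 and without sensitive replicate 5, EB-resistant replicate 5, VC-resistant replicate 5 or any DT-resistant library (0.28 to 0.32), with upper-quartile scaling (0.27) and with only the 2 groups compared (0.29). The EB-resistant value passed the test without sensitive replicate 6 (0.38) or EB-resistant replicate 2 (0.34), and with upper-quartile scaling (0.31).

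COX5A, which pairs with COX4I1 in the early assembly of complex IV, was called in opposite directions. It had 67.2, 71.1 and 75.8 CPM in EB-resistant, 116, 114 and 121 CPM in VC-resistant and 101, 98.0 and 98.4 CPM in DT-resistant libraries, against 90.9, 97.2 and 97.8 CPM in sensitive ones. The EB-resistant libraries were the lowest and the VC-resistant ones the highest, with no overlap between these and any other group. The log2FC over sensitive cells was -0.42 in EB-resistant (adjusted p = 5.62e-05), 0.30 in VC-resistant (adjusted p = 0.00119) and 0.06 in DT-resistant cells (adjusted p = 0.464). Set directly against each other, EB-resistant cells were lower than VC-resistant cells (-0.71 ± 0.065, adjusted p = 2.96e-07) and DT-resistant cells (-0.48 ± 0.065, adjusted p = 1.83e-05).

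Complex V, the ATP synthase, had 17 tested members and the fewest calls for its size: 3 rose and 3 fell in EB-resistant cells, 4 rose and 2 fell in VC-resistant cells, and 2 rose and 3 fell in DT-resistant cells. Of its members 35.3%, 35.3% and 29.4% were called, beside 56.1%, 55.0% and 59.1% of all genes. These small counts of rises and falls moved with single libraries and settings. The 3 rises in EB-resistant cells became 6 without sensitive replicate 6 or with upper-quartile scaling. The 2 falls in VC-resistant cells, ATP5F1A and ATP5F1E, became 0 with no filter on low counts and when replicate 5 or 6 of the VC-resistant, EB-resistant or sensitive group was left out. They became 1 without replicate 2 of the VC- or EB-resistant group, with only the 2 groups compared or with DESeq2, and 4 without sensitive replicate 2. In DT-resistant cells the 2 rises became 1 without sensitive replicate 2 or DT-resistant replicate 6, and the 3 falls became 1 without sensitive replicate 6 or DT-resistant replicate 5 and 5 with upper-quartile scaling. The 2 main subunits of the catalytic head fell in the EB-resistant line. ATP5F1A, the alpha subunit, had 330, 355 and 365 CPM in EB-resistant, 422, 417 and 435 CPM in VC-resistant and 384, 382 and 390 CPM in DT-resistant libraries, against 450, 486 and 504 CPM in sensitive ones. Every resistant library was under every sensitive one, with log2FC -0.46, -0.18 and -0.32 (adjusted p = 1.95e-05, 0.0278 and 0.000558). The VC-resistant call was lost without sensitive replicate 5 or 6, EB-resistant replicate 5 or 6, or any of the VC-resistant libraries (-0.19 to -0.13), with no filter (-0.16) and with only the 2 groups compared (-0.17).

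ATP5F1B, the catalytic beta subunit, had 690, 738 and 799 CPM in EB-resistant, 1021, 1001 and 1078 CPM in VC-resistant and 940, 944 and 974 CPM in DT-resistant libraries, against 929, 982 and 1006 CPM in sensitive ones. Only the EB-resistant libraries lay below (log2FC -0.39, adjusted p = 0.000148), and the log2FC of 0.09 and -0.03 in VC- and DT-resistant cells did not pass the test. ATP5PD, subunit d of the peripheral stalk, was the complex V gene that rose in each line (0.43, 0.56 and 0.48), at 104 to 118, 117 to 125 and 107 to 120 CPM against 79.7 to 83.4 CPM in sensitive cells. The genes ATP5MC1, ATP5MC2 and ATP5MC3 encode the same mature ring subunit c. ATP5MC1 rose in VC-resistant cells (0.36, adjusted p = 0.00527), ATP5MC2 fell in EB-resistant cells (-0.22, adjusted p = 0.0343), and ATP5MC3 was not called in any line. ATP5MC3 did pass the test in the VC- and DT-resistant lines without sensitive replicate 2 (-0.28 each), in the DT-resistant line with upper-quartile scaling (-0.20), and in the EB-resistant line with that scaling (0.23) or without sensitive replicate 6 (0.26). ATP5MC1 passed it without sensitive replicate 6 in the EB- and DT-resistant lines (0.26 and 0.27), and with upper-quartile scaling in the EB-resistant line (0.24). The ATP5MC2 call was lost without any of the sensitive libraries, EB-resistant replicate 2 or EB-resistant replicate 5 (-0.23 to -0.15), with DESeq2 (-0.21) and with upper-quartile scaling (-0.15).

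Set directly against each other, EB-resistant cells differed from either other resistant line in about as many members as from the parent, and few differences between VC- and DT-resistant cells passed the test. Of the members, 54.5% were called over the parent, 55.8% over VC-resistant and 49.4% over DT-resistant cells. Each share was under that of all genes, which was 56.1% over the parent and is given below for the others. For EB-resistant over VC-resistant cells 23 members rose and 20 fell, beside 58.4% of all genes called (29.6% upward and 28.8% downward). The 23 became 14 without EB-resistant replicate 6. For EB-resistant over DT-resistant cells 23 rose and 15 fell, beside 57.2% of all genes called (28.4% upward and 28.8% downward). Changes of at least 1.5-fold were seen upward in 1 and 2 members over VC- and DT-resistant cells, beside 19.6% and 18.4% of all genes, and downward in 2 each, beside 17% and 16.6%. UQCR10 was higher in EB-resistant than in VC-resistant (1.59-fold) and DT-resistant cells (1.66-fold), and NDUFA6 than in DT-resistant cells (1.53-fold). COX5A was 1.64-fold lower than in VC-resistant cells and NDUFA9 1.53-fold lower than in DT-resistant cells, and the scarce NDUFV2 was over 1.5-fold lower than in both. The single 1.5-fold rise over VC-resistant cells became 2 without EB-resistant replicate 2 or 5 or any VC-resistant library, and the 2 rises over DT-resistant cells became 4 without EB-resistant replicate 2 and 1 without DT-resistant replicate 5. NDUFV3, a small flavoprotein subunit, had 29.3 ± 1.84 CPM in EB-resistant, 19.6 ± 1.24 CPM in VC-resistant, 19.9 ± 1.32 CPM in DT-resistant and 26.5 ± 2.48 CPM in sensitive cells. It was higher in EB-resistant than in VC-resistant cells (log2FC 0.58, adjusted p = 9.14e-05). Over sensitive cells it fell in VC-resistant cells (-0.43) and had log2FC 0.15 in EB-resistant cells (adjusted p = 0.197).

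For VC-resistant over DT-resistant cells 1 of 77 members was called, or 1.30%, beside 15.8% of all genes (7.08% upward and 8.71% downward). This was COX5A, with 116, 114 and 121 CPM in VC-resistant and 101, 98.0 and 98.4 CPM in DT-resistant libraries (log2FC 0.24, adjusted p = 0.0192). At 1.5-fold or more none was called, beside 3.44% of all genes upward and 4.73% downward. The COX5A call was lost without VC-resistant replicate 6 (0.22), DT-resistant replicate 5 (0.23) or DT-resistant replicate 6 (0.23). No member fell by edgeR's adjusted p, 3 were lower at an unadjusted p under 0.05, and DESeq2 called 1, SDHA (-0.26). The log2FC of the 77 members lay between -0.40 and 0.25, with the lower end set by the scarce NDUFA13.

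The position of the members in the genome was a property that the choice of genes did not use. In EB-resistant cells members on some chromosomes lay on the same side of 0 as most other genes there, and members on others did not. All 7 tested members on chromosome 11 (SDHD, NDUFS3, COX8A, NDUFV1, NDUFS8, ATP5MG and NDUFC2) had a positive log2FC over sensitive cells, between 0.26 and 0.75, and the 926 other tested genes of that chromosome had a median of 0.34. Both members on chromosome 22, NDUFA6 and UQCR10, were at 0.76 and 0.66, where the chromosome median was 0.55. On chromosome 12 the members other than NDUFA4L2 lay between -0.62 and -0.18, including NDUFA12, NDUFA9 and ATP5F1B, and the chromosome median was -0.43. The 3 members on chromosome 10 lay between -0.34 and -0.12 (median -0.44), both on chromosome 18, ATP5F1A and NDUFV2, at -0.46 and -1.42 (median -0.55), and COX5A on chromosome 15 at -0.42 (median -0.33). On chromosome 2, by contrast, the median was -0.17, yet 4 of 5 members were positive, 3 rose and 0 fell, with the highest at 0.53. Chromosome 19, which holds the most members, had a median of 0.11, and 5 of its 9 members were negative. On chromosomes 7 and 17, with medians of -0.02 and -0.04, all members, 4 and 2, were positive.

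For some members nearer neighbours lay on the same side of 0 where the chromosome as a whole did not. NDUFS6 and SDHA, close to the end of the short arm of chromosome 5, had log2FC -0.34 and -0.47 in EB-resistant cells, where other genes within 5 Mb had medians of -0.57 and -0.33 and the chromosome 0.15. UQCRC1 on chromosome 3 had -0.44, its neighbours -0.41 and the chromosome 0.06. In VC- and DT-resistant cells UQCRC1 had 0.07 and -0.01, and its neighbours -0.28 and -0.37. Other members went against their neighbours in EB-resistant cells, such as NDUFC1 (-0.10, neighbours 0.26) and COX7B (0.25, neighbours -0.21). Over the 77 members Pearson's r between a member's log2FC and the median of its neighbours within 5 Mb was 0.50, 0.38 and 0.33 for the EB-, VC- and DT-resistant lines over the sensitive one. With whole chromosomes as the measure, r was 0.34, 0.19 and 0.19, and 0.68, 0.37 and 0.38 without the scarce NDUFA4L2. The 5 Mb values include NDUFA4L2. These values describe genes that share libraries and, in part, neighbours, and carry no test. DNA copy number was not measured here, and the part of position in the changes was not tested.

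Set against their neighbours, the members lay higher on balance. How often any tested gene lies above its neighbours was not computed, and these differences carry no test. In EB-resistant cells the median difference between a member's log2FC and that of its 5 Mb neighbours was 0.15, with 54 of 77 members above. In VC-resistant cells it was 0.18, with 56 above, and in DT-resistant cells 0.11, with 51 above. For complex IV it was 0.18, 0.35 and 0.37, with 9, 10 and 9 of 10 members above. For complex V it was 0.18, 0.16 and 0.07, with 12, 13 and 12 of 17 members above. For complex II it was 0.18, 0.19 and 0.16, for complex I 0.12, 0.12 and 0.09, and for complex III 0.05, 0.03 and -0.05.

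**Figure D4:**
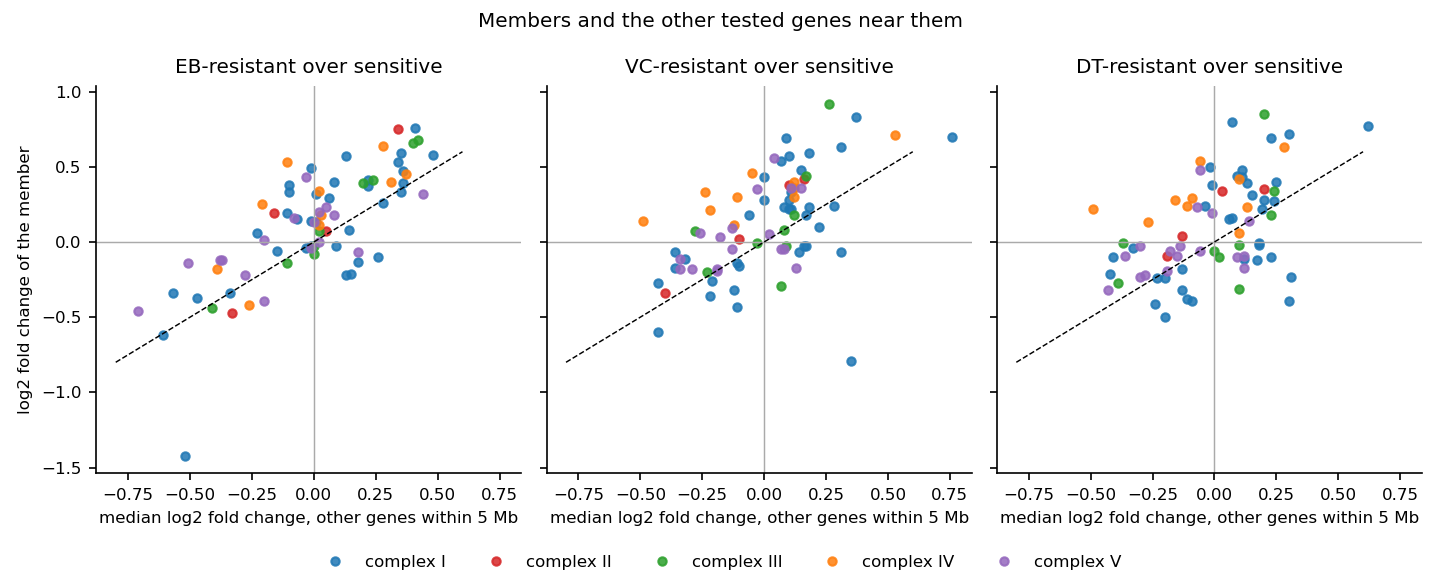
log2 fold change of each tested member except NDUFA4L2 (vertical axis) against the median log2 fold change of the other tested genes within 5 Mb (horizontal axis), for each resistant line over the sensitive parent, coloured by complex; the dashed line marks equality. Of the 10 complex IV points 9, 10 and 9 lie above the line in the EB-, VC- and DT-resistant panels.

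Partners of the subunits outside the naming rule differed among themselves. CYC1, cytochrome c1 of complex III, had 149, 161 and 174 CPM in EB-resistant, 148, 151 and 158 CPM in VC-resistant and 156, 150 and 160 CPM in DT-resistant libraries, against 94.5, 94.6 and 95.2 CPM in sensitive ones. All resistant libraries lay above the sensitive ones, at log2FC 0.77, 0.68 and 0.71 (adjusted p = 1.39e-07, 8.23e-07 and 3.78e-07). CYCS, the mobile cytochrome c, had log2FC -0.23 in EB-resistant cells (adjusted p = 0.0207) and was not called in the others (-0.09 and -0.15). Its call was lost without sensitive replicate 5 or 6 or EB-resistant replicate 2 or 5 (-0.23 to -0.14) and with upper-quartile scaling (-0.16). ATP5IF1, an inhibitor of the ATP synthase, also fell in EB-resistant cells (-0.33, adjusted p = 0.00208), and NDUFAB1, the acyl carrier protein of complex I, was called in no line. The 2 falls among these 4 genes in EB-resistant cells thus became 1 in those fits, and CYCS fell in DT-resistant cells without sensitive replicate 2 (-0.22).

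Among 57 assembly factors of the 5 complexes, 13 rose and 13 fell in EB-resistant, 9 rose and 15 fell in VC-resistant, and 9 rose and 19 fell in DT-resistant cells, with medians of -0.08, -0.05 and -0.10. Upward that is 22.8%, 15.8% and 15.8%, beside 28.5%, 27.6% and 29.8% of all genes. Downward it is 22.8%, 26.3% and 33.3%, beside 27.6%, 27.4% and 29.3%. The 15 became 9 and the 19 became 12 without sensitive replicate 6. LRPPRC, which stabilizes mitochondrial mRNAs and is listed here with complex IV assembly, had 231, 241 and 242 CPM in EB-resistant, 191, 184 and 187 CPM in VC-resistant and 151, 167 and 160 CPM in DT-resistant libraries, against 490, 492 and 508 CPM in sensitive ones. All resistant libraries were far below, at log2FC -1.06, -1.41 and -1.64 (adjusted p = 1.63e-09, 2.22e-10 and 2.79e-11). COX20, a chaperone of a mitochondrially encoded complex IV subunit, also fell in each line (-0.28, -1.03 and -1.15), its EB-resistant call being lost without sensitive replicate 2 or 6 or any EB-resistant library, with median-of-ratios or upper-quartile scaling and with DESeq2 (-0.28 to -0.21), while NDUFAF2, a complex I assembly factor, rose in each (0.43, 0.57 and 0.41). ACAD9, another, averaged 119 CPM in EB-resistant cells against 57.7 CPM in sensitive cells (log2FC 1.05, adjusted p = 6.12e-08), and had 57.0 and 49.1 CPM in VC- and DT-resistant cells.

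Regulators of mitochondrial biogenesis went in both directions. Of 12 tested, 3 rose and 6 fell in EB-resistant, 4 rose and 4 fell in VC-resistant, and 5 rose and 5 fell in DT-resistant cells. Called were thus 75%, 66.7% and 83.3%, beside 56.1%, 55.0% and 59.1% of all genes. PPARGC1A, a coactivator of respiratory genes, had 10.3, 11.6 and 11.6 CPM in EB-resistant, 18.7, 13.3 and 14.2 CPM in VC-resistant and 15.3, 10.6 and 10.1 CPM in DT-resistant libraries, against 4.79, 3.67 and 4.39 CPM in sensitive ones. It lay above the sensitive range in all 9 resistant libraries, at log2FC 1.39, 1.84 and 1.49 (adjusted p = 7.30e-06, 6.66e-07 and 4.06e-06). Its nuclear receptor partner ESRRA rose as well (0.21, 0.76 and 1.03), as did PPARGC1B (0.67, 1.83 and 1.95). In EB-resistant cells their adjusted p was 0.0448 and 0.0317, and without sensitive replicate 2 or 5, EB-resistant replicate 5 or 6, or with no filter on low counts, the count of 3 regulators that rose there became 1.

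TFAM, which packages and transcribes mitochondrial DNA, went down. It had 104, 100 and 102 CPM in EB-resistant, 83.6, 98.1 and 103 CPM in VC-resistant and 74.6, 86.3 and 87.3 CPM in DT-resistant libraries, against 164, 181 and 216 CPM in sensitive ones. All resistant libraries lay below the sensitive ones, at log2FC -0.87, -0.98 and -1.18 (adjusted p = 2.86e-06, 1.39e-06 and 1.67e-07). NRF1, whose motif is marked in the promoters above, fell by smaller amounts (-0.27, -0.34 and -0.46), its EB-resistant call being lost with upper-quartile scaling and without sensitive replicate 5 or 6 or EB-resistant replicate 5 or 6 (-0.27 to -0.21). GABPA fell in VC- and DT-resistant cells (-0.43 and -0.42) and had log2FC -0.03 in EB-resistant cells. The 13 mitochondrially encoded mRNAs, which TFAM helps to transcribe, had medians of -0.39, -0.33 and -0.55, with 1 rise and 1 fall in EB-resistant cells and 0 rises and 4 falls in each of the other lines. At an unadjusted p under 0.05, and with DESeq2, those lines also had 0 rises. Of these mRNAs 15.4%, 30.8% and 30.8% were called in the EB-, VC- and DT-resistant lines, beside 56.1%, 55.0% and 59.1% of all genes. The EB-resistant rise was lost without sensitive replicate 2 or 6, EB-resistant replicate 2, VC-resistant replicate 5 or DT-resistant replicate 5, with no filter and with only the 2 groups compared, and the fall became 2 without sensitive replicate 6 or EB-resistant replicate 2. Without EB-resistant replicate 2, or with only the 2 groups compared, the VC- and DT-resistant lines had 1 rise each, and without sensitive replicate 6 the DT-resistant line had 7 falls.

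**Figure D5:**
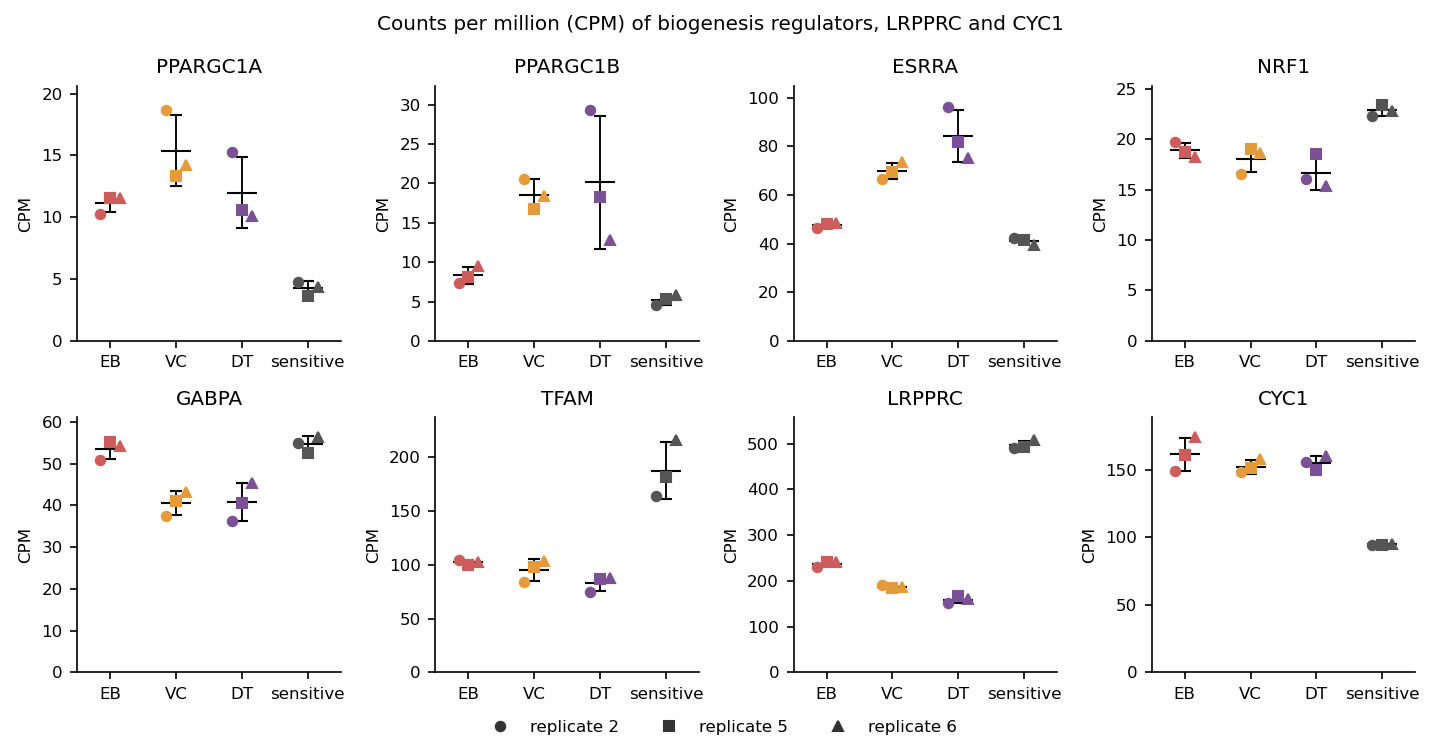
CPM of 6 regulators of mitochondrial biogenesis, of LRPPRC and of CYC1 in each library, with bars and whiskers for the mean and SD of 3 libraries. PPARGC1A and CYC1 are higher in all 9 resistant libraries than in any sensitive one, TFAM and LRPPRC lower, and GABPA is lower in the VC- and DT-resistant lines.

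Other mitochondrial and metabolic lists gave other counts. The background was 28.5%, 27.6% and 29.8% of all genes upward in the EB-, VC- and DT-resistant lines, and 27.6%, 27.4% and 29.3% downward. Of 77 tested mitochondrial ribosomal protein genes 21 rose and 14 fell in EB-resistant, 14 rose and 25 fell in VC-resistant, and 14 rose and 27 fell in DT-resistant cells, with medians of 0.05, -0.09 and -0.07. That is 27.3%, 18.2% and 18.2% upward and 18.2%, 32.5% and 35.1% downward. Of 19 genes of the citrate cycle and pyruvate dehydrogenase, 6 rose in each line and 6, 2 and 4 fell in the EB-, VC- and DT-resistant lines. That is 31.6% upward in each line, and 31.6%, 10.5% and 21.1% downward. The 4 became 2 without sensitive replicate 5 or 6 or DT-resistant replicate 2 or 5, with no filter and with only the 2 groups compared. Among them MDH2, malate dehydrogenase, rose in VC- and DT-resistant cells (0.54 and 0.48), and CS, citrate synthase, fell in EB-resistant cells (-0.64, adjusted p = 3.95e-07). Of 20 glycolysis genes 0 rose and 15 fell in EB-resistant cells, where edgeR gave 0 higher even at an unadjusted p under 0.05 and DESeq2 also gave 0. In VC-resistant cells 4 rose and 9 fell, and in DT-resistant cells 3 rose and 12 fell. Glycolysis genes thus rose in 0%, 20% and 15% and fell in 75%, 45% and 60% in the EB-, VC- and DT-resistant lines. PDK1, which inhibits pyruvate dehydrogenase, was not called in any line, while PDK2 rose and PDK3 fell in each. The PDK2 call in DT-resistant cells (0.31, adjusted p = 0.0238) was lost without sensitive replicate 2 or 5 or DT-resistant replicate 5, and PDK1 was called in VC-resistant cells (0.31 and 0.23) without sensitive replicate 2 or DT-resistant replicate 2.

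Many subunit genes are short: 56 of the 80 have a coding length of at most 600 bases. The 1521 tested protein-coding genes of that length had medians of 0.02, -0.01 and about 0 in the EB-, VC- and DT-resistant lines, with 439, 436 and 455 rises and 392, 435 and 450 falls. The 80 cytoplasmic ribosomal protein genes, also short and abundant, had medians of 0.05, 0.33 and 0.17, with 21, 55 and 41 rises and 20, 4 and 9 falls. That is 26.2%, 68.8% and 51.2% upward, beside 28.5%, 27.6% and 29.8% of all genes. Downward it is 25%, 5% and 11.2%, beside 27.6%, 27.4% and 29.3%. The VC- and DT-resistant lines thus had more ribosomal protein rises than the EB-resistant one. Upper-quartile scaling turned the 21 rises of the EB-resistant line into 32, and the 4869 rises over all genes there into 5387. The 4 falls in VC-resistant cells became 2 without VC-resistant replicate 5 or sensitive replicate 5 or 6. The part of transcript length in the changes of the subunit genes was not tested.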

How the data were processed

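Gene counts of 12 libraries were analysed as deposited by the authors: whole-number counts per gene, not normalized, with a gene length beside them. Per the submitters' processing notes, bcl2fastq 2.20.0, STAR 2.7.10b, featureCounts 2.0.1 and DESeq2 1.38.3 were used, with the hg38 build. The sources used here do not give the strand setting of the counting or its handling of reads that fit several genes, so genes whose exons overlap others may gain or lose counts. Per the labels' protocols, the libraries were strand-specific and poly(A)-selected. Library totals of 40491309 to 54495132 counts set the counting precision.

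Samples were grouped by the labels. edgeR 4.0.16 (R 4.3.3, limma 3.58.1) was run with filterByExpr, TMM scaling and a robust quasi-likelihood F-test on all 12 libraries, 1 mean per group, for 6 comparisons, with Benjamini-Hochberg adjustment over 17114 genes. A call was an adjusted p under 0.05, and a stricter call added at least 1.5-fold. The steps were checked on simulated counts. p-values measure the spread between independent experiments on 1 line per group. Alternatives were median-of-ratios and upper-quartile scaling, DESeq2 1.42.0, no filter, only the 2 groups compared, the replicate number as a block, and each library left out. Summaries and plots used Python 3.11.15, pandas 2.3.3, numpy 2.4.6 and matplotlib 3.10.9. Exon overlaps came from GENCODE 29 and promoters from RefSeq (GRCh38.p14).

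Same-numbered libraries of the VC- and DT-resistant lines deviated together from their group means (correlations 0.337, 0.151 and 0.195), so the numbers pair those 2 groups, from the data. In the other comparisons these correlations were positive but lower, between 0.00144 and 0.11. For DT-resistant over sensitive cells, as for VC- over DT-resistant cells, 6 of 6 libraries correlated best with their own number. The main fit was unpaired in every comparison, with the block as an alternative. Under the block the VC- over DT-resistant comparison kept its 1 call and gained 0.

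Members named with values were the 4 highest and 4 lowest called in each comparison at 5 CPM or more, those called alike in all 3 lines, those called in opposite directions, the SDH genes, paralog sets and core subunits. The members and gene lists were chosen with earlier results of these data known. The values of 1 member, which stays in the counts, are not reported here. No promoter window was used for 17 members, among them ATP5F1B, ATP5F1D, ATP5MC3, ATP5MF, ATP5MF-PTCD1, ATP5MGL, COX6C, NDUFA4, NDUFA4L2, NDUFB5, NDUFB9, NDUFC2, NDUFS5, SDHC, UQCRB and UQCRHL.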

Additional observations from a re-analysis of the deposited data

Results flagged for a closer look

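COX5A and NDUFA9 drew attention because their changes over the parent line were called in opposite directions in 2 resistant lines. COX5A was lower in EB-resistant than in VC-resistant cells by a log2 fold change of -0.71 (edgeR, adjusted p = 2.96e-07), falling over the parent in EB-resistant cells (-0.42) and rising in VC-resistant cells (0.30). NDUFA9 was lower in EB-resistant than in DT-resistant cells by a log2 fold change of -0.61 (edgeR, adjusted p = 1.53e-05), falling over the parent in EB-resistant cells (-0.37) and rising in DT-resistant cells (0.24). The direct comparison of the lines is the test of each difference.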

How the results depend on the processing

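No result reversed under the alternatives run. Upper-quartile scaling gave 11 members at least 1.5-fold higher, 1 lower and a median of 0.22 in EB-resistant over sensitive cells, and 4 higher, 1 lower and a median of 0.14 in EB-resistant over DT-resistant cells. That scaling also moved the median over all genes, to 0.06 and 0.08 in these 2 comparisons. All genes then had 5387 rises and 4141 falls over sensitive cells, and 5541 and 4242 over DT-resistant cells. Without a filter, 1 member was at least 1.5-fold lower in VC-resistant over sensitive cells. Over VC-resistant cells, EB-resistant cells had 2 members at least 1.5-fold higher with median-of-ratios scaling, upper-quartile scaling, the 2 groups alone or DESeq2. DESeq2 called 1 member lower in VC-resistant than in DT-resistant cells. Without the mitochondrially encoded and cytoplasmic ribosomal protein genes in the total, the members took 0.847%, 0.840% and 0.800% of counts in EB-, VC- and DT-resistant libraries and 0.769% in sensitive ones.

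Leaving out 1 library at a time moved the counts of at least 1.5-fold changes to 6 to 11 higher and 1 to 2 lower for EB-resistant over sensitive, 0 to 2 lower for VC-resistant over sensitive, 1 to 2 higher for EB-resistant over VC-resistant and 1 to 4 higher for EB-resistant over DT-resistant cells. It moved the calls to 6 to 14 lower for VC-resistant over sensitive (median 0.09 to 0.18), 14 to 23 higher for EB-resistant over VC-resistant and 0 to 1 higher for VC-resistant over DT-resistant cells. The cause of these moves was not tested.

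With the replicate number as a block, 36 members rose and 12 fell in EB-resistant, 34 rose and 15 fell in VC-resistant, and 32 rose and 15 fell in DT-resistant over sensitive cells. Calls over all genes grew too, to 5117 rises and 5014 falls, 4962 and 4989, and 5313 and 5272 in these lines. The main fit had 4869 and 4730, 4717 and 4694, and 5106 and 5010. The block gave 23 and 20 members for EB-resistant over VC-resistant cells, beside 5354 and 5213 of all genes. It gave 25 and 16 members for EB-resistant over DT-resistant cells, beside 5163 and 5181 of all genes. It left 9 of the 15 members called in none of the 3 comparisons with the parent, 4 of them in complex V: ATP5MC3 gained a call in the EB-, VC- and DT-resistant lines (0.17, -0.18 and -0.19) and ATP5PF in the VC- and DT-resistant lines (-0.17 each). Complex V then had 5 rises in EB-resistant and 5 falls each in VC- and DT-resistant cells, complex IV had 2 falls in EB-resistant cells, and the mitochondrially encoded mRNAs had 6 and 9 falls in EB- and DT-resistant cells and 1 rise each in VC- and DT-resistant cells. COX7B gained a call in EB-resistant cells (0.25) and ATP5MC1 in DT-resistant cells (0.19), and PPARGC1B lost its call in EB-resistant cells (0.67). Of 6 libraries in each comparison, 4, 5 and 6 correlated best with their own number for EB-, VC- and DT-resistant over sensitive cells. For EB- over VC-resistant cells 4 did so, for EB- over DT-resistant cells 5 and for VC- over DT-resistant cells 6. This is a hint from the data and not the design. The members with fewest counts, NDUFV2, NDUFA13 and NDUFA4L2, are where depth limits precision most.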
